A study of Homo sapiens with 6 samples.

Results

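The array used in this study carried 141 probes for 136 genes with a LINC name, the label given to long intergenic noncoding RNAs, among 24460 gene probes, of which 22967 had a gene symbol. The probes were taken by symbol alone, LINC followed by digits, and every probe of a gene was kept. MALAT1, NEAT1, HOTAIR, H19, MEG3, GAS5 and SNHG1, the 7 further long noncoding RNAs searched for by symbol, matched 0 probes and were not analysed here. Total RNA came from 2 stable derivatives of MDA-MB-231, a triple-negative and invasive line of human breast cancer cells. MB-231-maspin stably expressed maspin, a serpin encoded by SERPINB5 and cloned from MCF10A mammary epithelial cells, joined to the fluorescent protein ZsGreen through a self-cleaving P2A peptide. MB-231-control expressed ZsGreen alone. Both lines were made with lentivirus and selected with blasticidin, and each was measured on 3 arrays, 1 RNA sample per array. The labels number these arrays but do not say that they came from separate cultures, so the p-values below measure the spread between arrays, which may be technical.

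Long noncoding RNAs are transcribed by RNA polymerase II, and most are spliced and polyadenylated like mRNAs but are not translated into a known protein. As a class they are expressed at lower levels than mRNAs and in fewer cell types, many stay in the nucleus, and many are short-lived because the RNA exosome degrades them. Known members act as scaffolds for chromatin or RNA-binding proteins, as regulators of neighbouring genes or as sponges for microRNAs, and for most LINC genes no function is established. A LINC name records where a transcript lies and that it was thought to be noncoding when it was named. Some such genes have since been found to encode a small protein. The RefSeq annotation (GRCh38.p14) now classes some LINC genes of the array as protein-coding, and protein size was not looked up. It matched 138 of the 141 probes by Entrez identifier, 130 to genes classed as long noncoding RNA, 7 to protein-coding genes and 1 to a transcribed pseudogene. For 16 probes the current symbol was no longer the LINC name. LINC00116 is now MTLN, which encodes mitoregulin, a small protein of mitochondrial membranes. LINC00346 is now PRECSIT, a p53-regulated RNA studied in squamous carcinoma, and LINC01137 is now LITATS1, an RNA studied as an inhibitor of TGFβ signalling.

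The start regions of 4 members are shown, picked by their values in the comparison of the lines. No LINC-named probe passed that comparison after adjustment. Among the 42 probes bright enough to be tested, LINC01116 had the probe on which every MB-231-maspin array was above every MB-231-control array, LINC01531 had the largest positive difference between the lines, LINC01561 had the next smallest p among probes higher in MB-231-maspin and LINC00544 had the largest negative difference. Each window of 300 bases is from RefSeq and runs 5′ to 3′ from 250 bases before to 50 bases after the annotated start. Capitals mark CpG, the dinucleotide CG, which is the same on both strands and is dense at the starts of widely expressed genes. The build is GRCh38.p14, and no window overlapped a protein-coding gene. The windows lie at chr2:176637560-176637859 (minus strand) for LINC01116, chr19:35405357-35405656 (plus strand) for LINC01531, chr10:120597699-120597998 (plus strand) for LINC01561 and chr13:29936281-29936580 (plus strand) for LINC00544.
LINC01116: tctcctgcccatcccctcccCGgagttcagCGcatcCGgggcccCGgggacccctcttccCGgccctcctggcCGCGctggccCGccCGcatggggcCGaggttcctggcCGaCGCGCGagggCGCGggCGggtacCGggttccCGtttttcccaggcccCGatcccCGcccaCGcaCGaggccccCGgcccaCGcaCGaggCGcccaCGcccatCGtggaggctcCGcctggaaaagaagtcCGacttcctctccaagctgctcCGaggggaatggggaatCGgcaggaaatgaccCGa
LINC01531: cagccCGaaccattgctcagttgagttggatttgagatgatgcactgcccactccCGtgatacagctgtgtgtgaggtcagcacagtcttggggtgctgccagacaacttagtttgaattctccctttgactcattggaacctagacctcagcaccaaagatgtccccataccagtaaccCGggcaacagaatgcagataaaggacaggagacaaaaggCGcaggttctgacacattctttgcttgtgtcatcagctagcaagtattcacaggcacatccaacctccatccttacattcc
LINC01561: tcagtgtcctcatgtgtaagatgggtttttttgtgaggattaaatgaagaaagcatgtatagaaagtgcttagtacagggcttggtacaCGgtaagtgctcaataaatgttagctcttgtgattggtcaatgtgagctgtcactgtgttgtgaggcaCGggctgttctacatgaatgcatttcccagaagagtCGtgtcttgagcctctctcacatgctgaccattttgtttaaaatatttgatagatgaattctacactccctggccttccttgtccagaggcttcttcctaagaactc
LINC00544: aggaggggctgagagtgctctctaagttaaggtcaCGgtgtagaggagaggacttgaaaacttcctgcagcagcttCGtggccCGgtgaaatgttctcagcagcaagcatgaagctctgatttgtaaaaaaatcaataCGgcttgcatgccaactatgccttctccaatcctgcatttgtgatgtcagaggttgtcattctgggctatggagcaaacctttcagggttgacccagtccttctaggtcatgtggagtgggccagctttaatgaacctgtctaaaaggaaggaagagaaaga
The LINC01116 window held 34 CpG and was 72.7% G or C, whereas the LINC01531, LINC01561 and LINC00544 windows held 4, 3 and 4 CpG and were 49.3%, 42.3% and 47.7% G or C. LINC01559 and LINC00467 are described below without a sequence, since the RefSeq promoter set used here holds no start for either.

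Intensities were read in Cy5 on 1-colour arrays, and the authors subtracted a background of 67.8 to 70.3 before scaling the median of every array to 25. A probe near the background was left blank. Between 87.1% and 91.3% of gene probes had a value on an array. VIM and AXL, mesenchymal markers of MDA-MB-231, were bright on every array (11687 to 13757 for the brightest VIM probe and 1802 to 2459 for AXL). The other VIM probes read 141 to 178 and 7.97 to 11.4. EGFR and CD44, also expected in these cells, read 35.3 to 48.5 and 293 to 401. Epithelial markers were present too, with 3181 to 4361 for the brightest KRT18 probe and 46.3 to 63.7 for CDH1. The estrogen receptor gene ESR1 had no value, whereas ERBB2, the gene of the receptor HER2, read 14.8 to 18.1. The leukocyte marker PTPRC did not pass 2.03. CD3E, another leukocyte marker, read 4.07 to 6.44 on its AHsV10002939 probe and had no value on its H200000722 probe. The SERPINB5 probe read 4.20, 2.79 and 4.40 on MB-231-maspin arrays and 5.10, 5.61 and 4.11 on MB-231-control arrays, below the minimum mean of 10 used for testing, so it gave no check of the labels (adjusted p = 0.558 in limma without the minimum). The lines are named as labelled throughout. Whether the SERPINB5 probe lies in the cloned part of the transcript is not given in the sources used here.

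Most LINC-named transcripts were dim in these cells. Of the 141 probes, 87 had a value on all 6 arrays, 25 on some arrays and 29 on none. The study's minimum, a mean above 10 in at least 1 line, was passed by 42 probes of 40 genes, which were tested. Another 45 probes were measured on all 6 arrays but stayed at a mean of 9.47 or lower, and the probes measured on some arrays only did not pass 4.80. In all, 70 probes had a value but were not tested. The number of LINC-named probes with a value was 103, 103 and 102 on the MB-231-maspin arrays, against 102, 101 and 94 on the MB-231-control arrays. The control array with 94 was replicate 3, which also had the lowest share of all gene probes with a value, 87.1%. On every array, each of the 42 tested probes lay above the brightest of the 96 negative control spots.

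The share of probes tested was lower for LINC names than for the other classes on the array, as the plot of probes by class of gene name shows. It was 29.8% for the 141 LINC-named probes, 41.9% for 136 probes of antisense-named genes, 43.8% for 16 probes of small nucleolar RNA and microRNA host genes and 62.6% for 22674 other named probes. No value on any array was found for 20.6% of LINC-named probes, 5.15% of antisense-named probes and 5.44% of other named probes. These shares describe probes as the array's designers chose and named them, and no test was made between the classes.

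**Figure D1:**
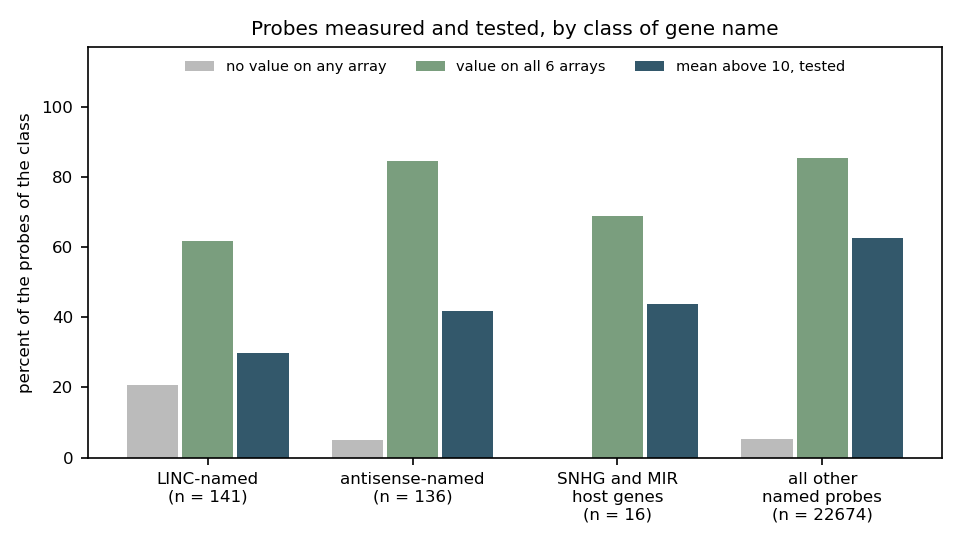
Percent of probes (y axis) with no value on any array, with a value on all 6 arrays, and with a mean intensity above 10 in at least 1 line, for 4 classes of gene name (x axis, n probes). LINC-named probes had the lowest share tested, 29.8%, and the highest share without a value, 20.6%.

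Detection and start sequence were set side by side for the 97 of 136 LINC genes that the RefSeq promoter table holds. The 27 tested genes had a median of 11.5 CpG in the window, the 51 genes with a value but not tested had 7, and the 19 genes with no value had 5. Over all LINC genes the median was 8, against 22 for 14412 protein-coding genes with a probe. The range was wide in each class, 0 to 47 CpG among tested genes and 0 to 46 among genes with no value, so that the classes overlapped over nearly their whole range. At least 1 CpG was present in 95.3% of the 106 start windows of LINC genes and in 96% of all 35116 windows in the table, and 20 or more CpG were present in 21.7% of the LINC windows, 54.3% of the protein-coding windows and 41.2% of all windows. These are descriptions of annotated sequence, with no test.

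**Figure D2:**
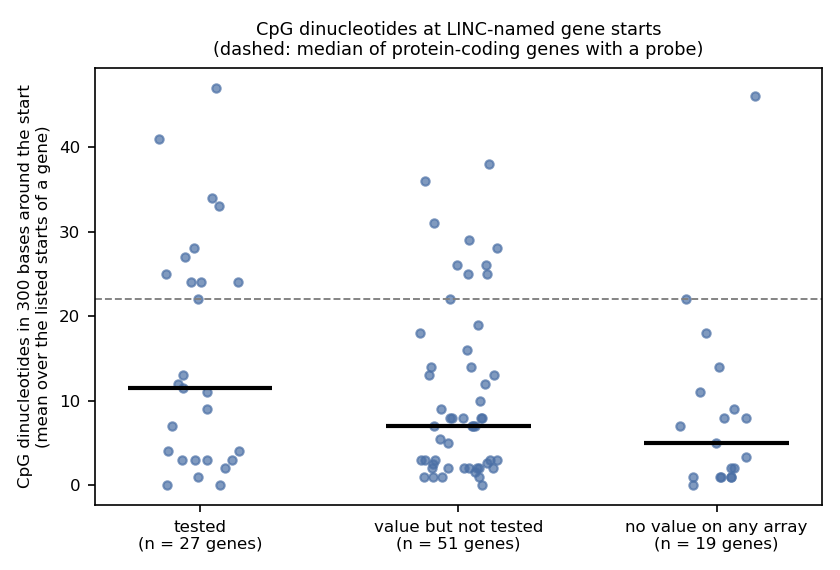
CpG count per 300-base window (y axis, mean over a gene's listed starts) for LINC-named genes that were tested, had a value but were not tested, or had no value on any array (x axis, n genes). Points are genes, bars are medians (11.5, 7 and 5) and the dashed line is the median of protein-coding genes with a probe, 22.

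The comparison of MB-231-maspin with MB-231-control addressed whether stable maspin expression goes with another level of these transcripts. Of the 42 LINC-named probes tested, 0 passed an adjusted p of 0.05 (limma on log2 intensity, two-sided, Benjamini-Hochberg over 14903 probes), where 0.845% of all probes tested passed, 0.51% higher and 0.336% lower. Without adjustment, 0 LINC-named probes were higher and 2 were lower at p under 0.05, 4.76% of those tested, while 13.4% of all probes reached that level, 9.48% higher and 3.87% lower. The methods' t-test on log2 values, run on the same arrays, likewise gave 0 after adjustment, and 1 before it. The smallest adjusted p of a LINC-named probe was 0.295. An exact permutation test of 3 arrays against 3 cannot go below 0.1, so single probes are given with limma's p.

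The differences were small. The median log2 fold change (MB-231-maspin minus MB-231-control) was -0.01 over the 42 LINC-named probes and 0.03 over all probes tested. It was above 0 for 18 LINC-named probes and below 0 for 24, so that 42.9% were above 0, where 59.3% of all probes were. For 28 of the 42 the size of the log2 fold change was under 0.1, and 1 probe, that of LINC01531, was beyond 1.5-fold (0.879% of all probes). The study's criterion was 1.5-fold together with a p under 0.05. Applied here to limma's unadjusted p, it was met by 0 LINC-named probes and by 0.825% of all probes. The 95% interval lay within 1.5-fold in both directions for 39 of 42, or 92.9%, against 91.6% of all probes. The 3 that reached further were LINC01531 (-0.03 to 1.30), LINC00544 (-0.60 to -0.03) and LINC00909 (-0.11 to 0.59). In bulk RNA a lower level per cell and fewer cells with the transcript cannot be told apart.

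The arrays of the 2 lines overlapped for 40 of the 42 probes. MB-231-maspin lay above MB-231-control on every array for 1 probe of LINC01116 and below it on every array for LINC01559, together 4.76% of the probes, where 20.5% of all probes tested with 6 values did not overlap, 13.7% above and 6.85% below. The spread of replicates was like that of other probes, with a median SD of log2 intensity of 0.105 over LINC-named probes in MB-231-maspin and 0.103 in MB-231-control, while over all probes it was 0.0886 in MB-231-maspin and 0.129 in MB-231-control.

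**Figure D3:**
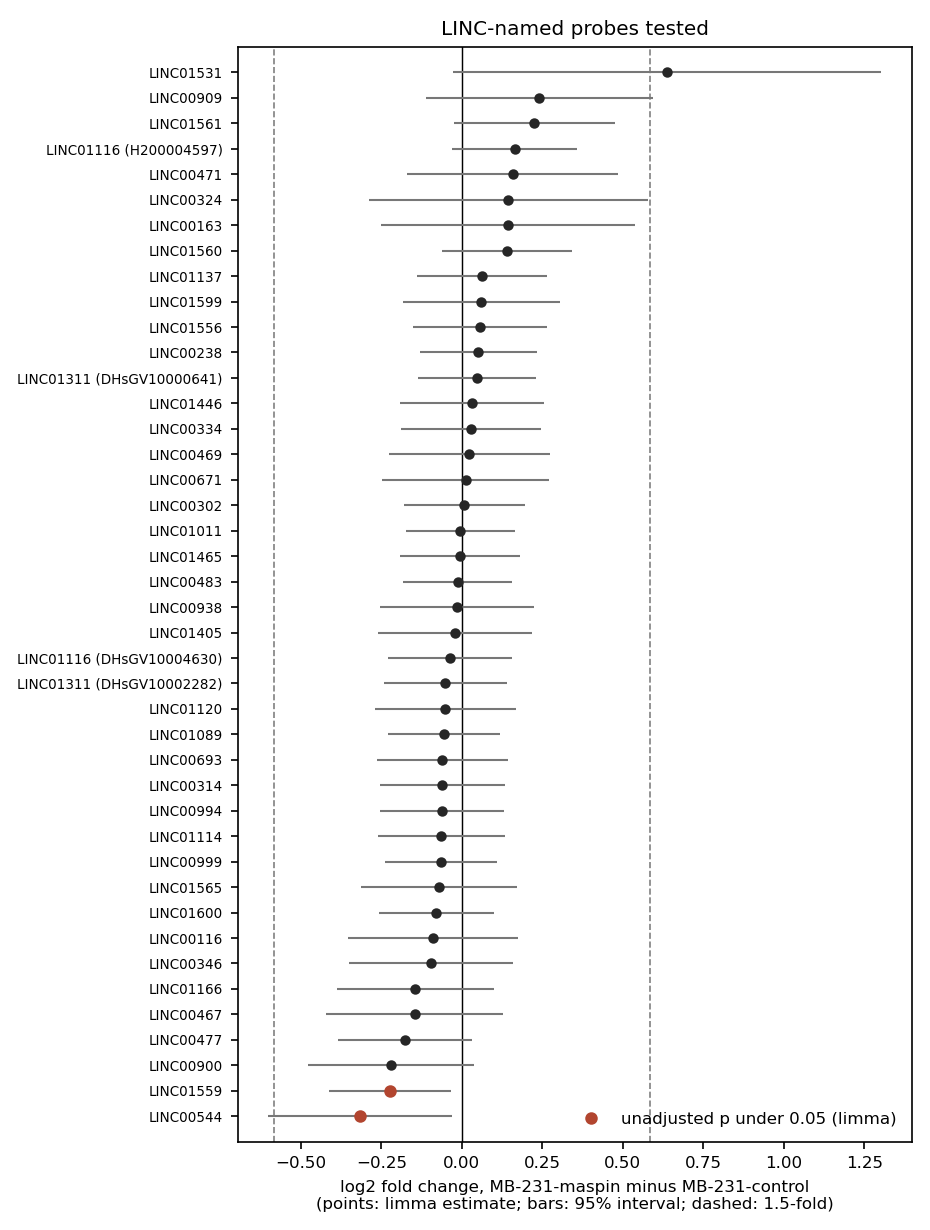
Log2 fold change of MB-231-maspin minus MB-231-control (x axis) for the 42 tested LINC-named probes (y axis). Points are limma estimates, bars are 95% intervals and dashed lines mark 1.5-fold. LINC01559 and LINC00544, in red, had an unadjusted p under 0.05, and 28 of 42 estimates were within 0.1 of 0.

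LINC01559 and LINC00544 had the smallest p-values of the 42 tested probes. The LINC01559 probe (H300008130) read 16.8, 15.6 and 17.2 on MB-231-maspin arrays and 20.5, 18.3 and 19.2 on MB-231-control arrays. All 3 MB-231-maspin values were lower, with means of 16.6 ± 0.853 in MB-231-maspin and 19.3 ± 1.11 in MB-231-control (SD, n = 3 each). The log2 fold change was -0.22 (SE 0.08), with an adjusted p of 0.295 in limma. LINC01559 is a long noncoding RNA studied in gastric and pancreatic cancer, and it is among the genes that the study listed from these arrays, so its low p is not independent evidence. The LINC00544 probe (H300005330) read 8.92, 10.3 and 10.7 on MB-231-maspin arrays and 14.3, 10.6 and 12.6 on MB-231-control arrays. The highest MB-231-maspin value reached into the control range, and the MB-231-maspin mean of 9.99 ± 0.939 was itself just under the minimum of 10, against 12.5 ± 1.81 in MB-231-control (SD, n = 3 each). The log2 fold change was -0.32 (SE 0.12), with an adjusted p of 0.324 in limma.

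LINC00477, LINC00900 and LINC01166 followed among the probes lower in MB-231-maspin. LINC00477 read 19.3, 19.1 and 21.0 on MB-231-maspin arrays and 23.4, 20.3 and 23.6 on MB-231-control arrays, a log2 difference of -0.18 (adjusted p = 0.442 in limma). LINC00900 read 12.8, 10.1 and 12.4 on MB-231-maspin arrays and 14.3, 12.5 and 14.2 on MB-231-control arrays, a log2 difference of -0.22 (adjusted p = 0.442). LINC01166 averaged 9.91 ± 1.21 in MB-231-maspin and 10.9 ± 0.688 in MB-231-control (SD, n = 3 each), a log2 difference of -0.14 (adjusted p = 0.591). In each case 1 or more MB-231-maspin values lay inside the control range.

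Among the tested probes, LINC01531 had the largest difference and also the widest interval. Its probe (DHsGV10005541) read 24.2, 27.2 and 18.6 on MB-231-maspin arrays and 15.0, 22.7 and 9.50 on MB-231-control arrays. MB-231-control replicate 2 lay above 1 MB-231-maspin array, and the 3 control values spanned more than a doubling. Means were 23.3 ± 4.41 in MB-231-maspin and 15.7 ± 6.63 in MB-231-control (SD, n = 3 each), 1.56-fold on the log scale, with a log2 fold change of 0.64 (SE 0.29) and an adjusted p of 0.388 in limma. Without MB-231-control replicate 3, the estimate was 0.32, and without MB-231-control replicate 2 it was 0.95, with adjusted p-values over all settings between 0.0859 and 0.801. LINC01531 lies next to FFAR2, a short-chain fatty acid receptor gene, and no function of it is described here.

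The LINC01561 probe (H300009239) read 22.9, 21.2 and 18.5 on MB-231-maspin arrays and 19.03, 18.5 and 15.9 on MB-231-control arrays. It averaged 20.8 ± 2.23 in MB-231-maspin and 17.8 ± 1.66 in MB-231-control (SD, n = 3 each), the lowest MB-231-maspin value lay within the control range, and the log2 fold change was 0.23 (SE 0.11, adjusted p = 0.420 in limma). LINC00909, now ZNF407-AS1, read 22.4, 23.3 and 17.3 on MB-231-maspin arrays and 16.5, 21.3 and 15.5 on MB-231-control arrays, a log2 difference of 0.24 (SE 0.15, adjusted p = 0.535). LINC00471 read 15.4, 14.8 and 12.5 on MB-231-maspin arrays and 11.4, 15.7 and 11.5 on MB-231-control arrays, a log2 difference of 0.16 (adjusted p = 0.675) that was 0.31 without MB-231-control replicate 2 and 0.076 without MB-231-control replicate 1. LINC01560 averaged 10.6 ± 0.650 in MB-231-maspin and 9.66 ± 0.706 in MB-231-control (SD, n = 3 each), a log2 difference of 0.14 (adjusted p = 0.528). For all 4 the 2 lines overlapped.

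The 4 tested probes with the largest standard errors had a common order of control arrays. For LINC01531, LINC00324, LINC00163 and LINC00909, the 4 tested members with the highest standard errors (0.29, 0.19, 0.17 and 0.15), MB-231-control replicate 2 gave the highest control value and MB-231-control replicate 3 the lowest. LINC00163, for example, read 21.4, 21.7 and 18.1 on MB-231-maspin arrays and 17.3, 24.2 and 14.9 on MB-231-control arrays. Among the probes next by standard error, the order held for some and not for others. LINC00471 (0.14) was lowest on MB-231-control replicate 1, and LINC00544 (0.12) was lowest on MB-231-control replicate 2. LINC00467 (0.119) and LINC00116 (0.115), which came after them, were again highest on MB-231-control replicate 2 and lowest on MB-231-control replicate 3. The share of all probes with this order was not counted. The median of all tested probes, relative to the control mean, was 0.10 on the log2 scale on control replicate 2 and -0.10 on control replicate 3, against 0.03 and -0.04 over LINC-named probes. The part of these 2 arrays in the single-probe results was not tested beyond leaving each out in turn. These 4 probes were grouped after their values were seen.

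**Figure D4:**
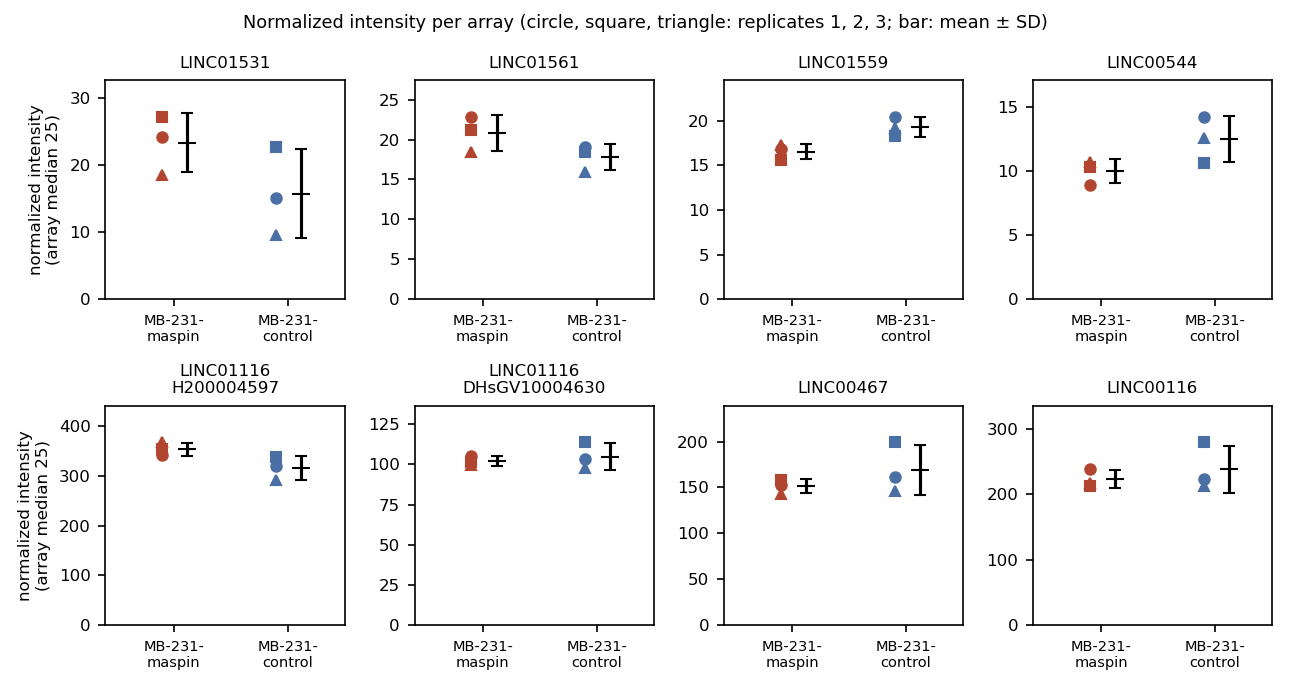
Normalized intensity (y axis, linear, from 0, array median 25) on each array of MB-231-maspin (red, left) and MB-231-control (blue, right) for 8 LINC-named probes. Symbols mark replicates 1, 2 and 3, and the bar beside each group is its mean ± SD. LINC01559 and the H200004597 probe of LINC01116 are the tested members whose lines do not overlap.

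Among members that had been studied in breast cancer or invasion, LINC01116 was measured by 2 probes whose estimates had opposite signs. LINC01116 is transcribed near the HOXD cluster of homeobox genes and has been studied in breast cancer and glioma. Its H200004597 probe read 341, 353 and 367 on MB-231-maspin arrays and 320.1, 338 and 291 on MB-231-control arrays. All MB-231-maspin values were higher, with means of 354 ± 13.1 in MB-231-maspin and 316 ± 23.8 in MB-231-control (SD, n = 3 each), a log2 fold change of 0.16 (SE 0.08, adjusted p = 0.446 in limma). Its DHsGV10004630 probe read 105, 101 and 99.6 on MB-231-maspin arrays and 103, 114 and 97.6 on MB-231-control arrays, which overlapped, with a log2 fold change of -0.04 (SE 0.08, adjusted p = 0.884). The 2 estimates differed by 0.20 on the log2 scale, and neither passed the test.

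LINC00467, studied in several cancers and reported to encode a small mitochondrial protein, read 153, 158 and 143 on MB-231-maspin arrays and 162, 199 and 146 on MB-231-control arrays. The log2 fold change was -0.15 (SE 0.12, adjusted p = 0.636), and the highest value came from MB-231-control replicate 2. It was -0.023 without that array and -0.25 without MB-231-control replicate 3. LINC01089, also called LIMT and described in mammary cells as an EGF-repressed RNA that limits metastasis, read 66.5, 61.7 and 61.3 on MB-231-maspin arrays and 66.0, 67.5 and 63.5 on MB-231-control arrays (log2 fold change -0.06, adjusted p = 0.792). LINC00324 averaged 12.03 ± 1.63 in MB-231-maspin and 11.1 ± 2.88 in MB-231-control (SD, n = 3 each; log2 fold change 0.14, adjusted p = 0.785). LINC00673 had a mean of 4.69 ± 0.761 in MB-231-maspin and 3.94 ± 0.933 in MB-231-control (SD, n = 3 each) and was not tested. Over this list 5 probes of 4 genes were tested, 0 passed with or without adjustment, and the median log2 fold change was -0.04, against 0.03 for all probes.

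Genes since found to encode a small protein gave 2 tested probes, LINC00467 above, which RefSeq still classes as long noncoding RNA, and LINC00116. The LINC00116 (MTLN) probe read 238, 213 and 216 on MB-231-maspin arrays and 223, 279 and 212 on MB-231-control arrays. The lines overlapped, and the log2 fold change was -0.09 (SE 0.12, adjusted p = 0.780). Of the 7 probes that RefSeq assigns to protein-coding genes, 3 were tested, for LINC00116, LINC00238 (now CCDC196) and LINC00483 (now ANKRD40CL). LINC00238 averaged 26.5 ± 0.956 in MB-231-maspin and 25.6 ± 1.47 in MB-231-control, and LINC00483 averaged 18.9 ± 0.169 in MB-231-maspin and 19.1 ± 0.837 in MB-231-control (SD, n = 3 each), with log2 fold changes of 0.05 and -0.01.

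LINC01137 (LITATS1) and LINC00346 (PRECSIT) were picked out for their described roles after their values were seen. LINC01137 read 18.3, 15.9 and 16.04 on MB-231-maspin arrays and 16.6, 16.4 and 15.1 on MB-231-control arrays, which overlapped (log2 fold change 0.06, 95% interval -0.14 to 0.26, adjusted p = 0.804). LINC00346 read 30.5, 23.5 and 26.6 on MB-231-maspin arrays and 30.0, 26.3 and 29.5 on MB-231-control arrays (log2 fold change -0.10, 95% interval -0.35 to 0.16, adjusted p = 0.747). LINC00999, the remaining bright probe set by the naming rule, read 123, 110.4 and 115 on MB-231-maspin arrays and 122, 122 and 120.1 on MB-231-control arrays, a log2 difference of -0.07 (adjusted p = 0.748).

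Of the 5 LINC genes with 2 probes, LINC01116 and LINC01311 had both probes tested. For LINC01311, the DHsGV10002282 probe averaged 40.6 ± 2.90 in MB-231-maspin and 42.0 ± 1.69 in MB-231-control, and the DHsGV10000641 probe averaged 48.7 ± 3.34 in MB-231-maspin and 47.1 ± 0.627 in MB-231-control (SD, n = 3 each). The log2 fold changes were -0.05 and 0.05, 0.10 apart and both with intervals that included 0. For LINC00994 and LINC01556 1 probe was tested, and for LINC01588 neither was.

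Because long noncoding RNAs can act on genes beside them, the nearest protein-coding gene by RefSeq was looked up for the 40 tested LINC genes. In 4 cases a coding gene overlapped the LINC gene, among them LINC01089 with SETD1B and LINC01560 with ZNF41, and whether a probe there also reads the coding transcript was not tested. A tested probe was available for 24 neighbours, of which 0 passed the adjusted threshold and 3 had an unadjusted p under 0.05, 1 higher and 2 lower, where 0.845% and 13.4% of all probes did, and the median log2 fold change was 0.04. EMP1, an epithelial membrane protein gene beside LINC01559, averaged 514 ± 9.40 in MB-231-maspin and 633 ± 9.76 in MB-231-control (log2 fold change -0.30, adjusted p = 0.131), in the same direction as LINC01559. UBL3, a ubiquitin-like protein gene beside LINC00544, averaged 147 ± 11.6 in MB-231-maspin and 117.6 ± 9.20 in MB-231-control (log2 fold change 0.32, adjusted p = 0.201), opposite to LINC00544. TRAF5, an adaptor of tumor necrosis factor receptors beside LINC00467, averaged 34.9 ± 0.547 in MB-231-maspin and 40.2 ± 3.19 in MB-231-control (SD, n = 3 each; log2 fold change -0.20, adjusted p = 0.353). MTX2 beside LINC01116 and PLPP4 beside LINC01561 had log2 fold changes of -0.01 and 0.03. No test was made of the pairs.

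Partner genes of long noncoding RNAs were read from short lists. Of 18 tested probes for nuclear body proteins, which bind RNAs such as MALAT1 and NEAT1, 0 passed with adjustment and 4 had an unadjusted p under 0.05, all higher in MB-231-maspin, where 9.48% of all probes tested were higher at that level and 13.4% differed in either direction. The median log2 fold change was 0.09. They were the paraspeckle proteins NONO (0.28, adjusted p = 0.186) and SFPQ (0.19, adjusted p = 0.357), the nuclear speckle protein SON (0.24, adjusted p = 0.276) and the splicing regulator HNRNPH3 (0.22, adjusted p = 0.289). NONO averaged 761 ± 10.5 in MB-231-maspin and 629 ± 38.0 in MB-231-control (SD, n = 3 each). The 18 tested probes for the RNA exosome and its adaptors had a median of 0.06 with 0 passing and 1 at an unadjusted p under 0.05, PAPD5, a poly(A) polymerase of nuclear RNA decay (0.21, adjusted p = 0.348), against 13.4% of all probes. Hosts of small nucleolar RNAs, their proteins and the decay factors UPF1 and XRN1 (13 probes, median 0.08) held 0 probes at that level. So did chromatin partners of HOTAIR together with HOXC9, a gene of its locus (12 probes, median 0.06). Of 5 probes for imprinted genes in the same chromosome regions as H19 or MEG3, 1 was lower at an unadjusted p under 0.05. It was that of the potassium channel gene KCNQ1 (-0.21, adjusted p = 0.289), where 3.87% of all probes were lower at that level. Each list stood within 0.12 of 0 at its median, and all probes tested had a median of 0.03.

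The 70 dim probes gave values near the background, where a log2 difference rests on a few units of intensity. With no minimum mean and values on at least 2 arrays of each line, 98 LINC-named probes could be fitted, 56 of them only in that way. Among these 56, 0 passed an adjusted p of 0.05 (0.222% of 21576 probes did), and 5 had an unadjusted p under 0.05, 1 higher and 4 lower (10.3% of all probes). LINC01121 read 3.37, 3.39 and 3.45 on MB-231-maspin arrays and 2.50, 1.94 and 2.50 on MB-231-control arrays (log2 fold change 0.57, adjusted p = 0.194). The brightest negative control spots reached 2.58 to 3.44 on MB-231-maspin arrays and 3.22 to 9.35 on MB-231-control arrays. Each MB-231-maspin value of LINC01121 lay near but above the brightest such spot of its own array. Each MB-231-control value lay under it. LINC00173 read 4.57, 3.70 and 3.29 on MB-231-maspin arrays and 5.57, 5.80 and 5.23 on MB-231-control arrays (log2 fold change -0.53, adjusted p = 0.266). LINC00174 read 8.55, 7.23 and 7.08 on MB-231-maspin arrays and 9.19, 9.23 and 9.997 on MB-231-control arrays (log2 fold change -0.32, adjusted p = 0.366). LINC01346 and LINC01387 had log2 fold changes of -0.27 and -0.60, and LINC01387 was blank on MB-231-control replicate 2.

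Few probes had values in 1 line alone. Values were confined to MB-231-maspin arrays for 5 probes and to MB-231-control arrays for 3, and 0 probes had a value on all 3 arrays of a line and on none of the other.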

How the data were processed

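Total RNA of MB-231-maspin and MB-231-control was hybridised to 3D-Gene human oligonucleotide arrays in 1 colour, 3 arrays per line, grouped by the sample labels. The deposited scanner files hold, for each spot, the raw intensity, the intensity after the authors subtracted 1 background value per array, and the intensity they scaled to an array median of 25, blank near the background. The deposited table of the whole series, treated as a score, holds the same values rounded to whole numbers. The log2 of the normalized intensity was fitted for 14903 probes in R 4.3.3 by limma 3.58.1 (functions lmFit and eBayes) as MB-231-maspin minus MB-231-control, two-sided, with Benjamini-Hochberg adjustment at 0.05. A probe needed a mean above 10 in either line, as in the study's methods, and a value on at least 2 arrays of each. Median raw intensity was 100.0 to 115 on MB-231-maspin arrays and 104 to 108 on MB-231-control arrays, and 3 arrays per line limit the precision. The code was tested on simulated data. Of the gene probes, 1493 had no symbol, and control, blank and empty spots (2996) were left out of all fits. Nearest genes were taken from the RefSeq table by Entrez identifier, with the brightest tested probe standing for each.

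Named in the text were the 6 LINC-named probes with the smallest p in each direction, the 6 with the largest difference, the 6 with the highest mean, LINC01559, genes with more than 1 tested probe, and up to 4 members of each list by p. Where others are named, this is because of their described role, their standard error or their value in a fit without a minimum. The members and lists were chosen with earlier results of these data known. Alternatives were array weights, a robust prior with an intensity trend, the methods' t-test (log2 or linear values), other minimum means, quantile normalization, normexp with an offset of 50, log2(value + 10) with blanks as 0, the rounded table, the brightest probe per gene, leaving out single arrays, and blocking on the replicate number. Python 3.11.15 with pandas 2.3.3, numpy 2.4.6 and matplotlib 3.10.9 was used for tables and plots.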

Additional observations from a re-analysis of the deposited data

How the results depend on the processing

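Under each of 18 alternatives, 0 LINC-named probes passed an adjusted p of 0.05, and the smallest adjusted p of any was 0.0845, for LINC00544 without MB-231-control replicate 2. The median log2 fold change of the LINC-named probes was -0.014 in the main fit. It ran from -0.056 with a mean above 50 to 0.005 without MB-231-maspin replicate 2. The SD of this median between replicate arrays was 0.054. The 2 probes at an unadjusted p under 0.05 became 5 with array weights, 6 without a minimum mean (98 probes fitted), 1 by the methods' t-test on log2 or linear values, 0 of 7 with a mean above 50 and 0 with log2(value + 10). Leaving out 1 array gave 0 to 10, with 10 (7 higher, 3 lower) without MB-231-control replicate 2, 5 without MB-231-maspin replicate 3 and 0 without MB-231-control replicate 1, MB-231-maspin replicate 1 or MB-231-maspin replicate 2. The cause was not tested. With the replicate number as a block the count was 6 (3 higher, 3 lower) and 0 after adjustment. Deviations from the group means correlated between samples of the same number at r = -0.34, 0.49 and 0.22 for numbers 1, 2 and 3 over 14898 probes. Since number 1 ran the other way, the numbers were not taken as pairs. Of 327 values of the 19 named probes under the alternatives, 323 kept their direction. The others turned when 1 array was left out. LINC00116 ranged over -0.17 to 0.029 and the DHsGV10004630 probe of LINC01116 over -0.088 to 0.022, both positive without MB-231-control replicate 2, LINC00324 over -0.054 to 0.33, negative without MB-231-control replicate 3, and the DHsGV10000641 probe of LINC01311 over -0.0075 to 0.088, negative without MB-231-maspin replicate 1. Of the 70 dim probes with a value, 56 could be fitted only without a minimum mean, near the background, and the 29 probes without a value could not be compared.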

Other observations

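Antisense-named probes, the other large class of long noncoding RNA on the array, gave 57 tested probes, of which 0 passed an adjusted p of 0.05 and 9 had an unadjusted p under 0.05, 5 higher and 4 lower, where 13.4% of all probes reached that level. Their median log2 fold change was -0.01. Of 7 tested probes of small nucleolar RNA and microRNA host genes, 0 passed with adjustment and 1 was higher at an unadjusted p under 0.05, as were 9.48% of all probes, with a median of 0.10.

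A gene that the study listed as LINC01931 appeared on the array only under its clone name, AC007364.1, and was therefore not among the LINC-named probes. Its DHsGV10000137 probe read 19.7, 16.6 and 19.1 on MB-231-maspin arrays and 21.4, 20.8 and 21.3 on MB-231-control arrays (log2 fold change -0.20, SE 0.09, adjusted p = 0.369 in limma). Its H300004491 probe had a log2 fold change of -0.07 (adjusted p = 0.843).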
